A study of Mus musculus with 12 samples.

Results

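The genes described here are the core of the Wnt pathway: ligands, Frizzled receptors, LRP co-receptors, destruction complex proteins, β-catenin and the TCF/LEF factors. They were taken from a list of 39 names (secreted antagonists left out), and 38 of them were among the 17853 genes measured; Tcf7l1 was not analysed here. The measured members comprised 19 Wnt ligands, 10 Frizzled receptors, 2 co-receptors, 3 destruction complex genes, 3 TCF/LEF factors and β-catenin itself. They were followed in 4 populations of keratinocytes sorted by flow cytometry from the back skin epidermis of mice in telogen, when the hair cycle rests.

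Every population came from female reporter mice on a C57BL6/CBA background that carry the Gata6-mtomato reporter, in which red fluorescence marks cells that use the transcription factor Gata6. No population came from mice without the reporter. CD34+ cells carried CD34 and integrin alpha 6 (ITGA6) and had no reporter signal; in mice CD34 is a surface marker of bulge stem cells in the hair follicle. Remaining basal cells carried ITGA6 but neither CD34 nor the reporter. Gata6+Itga6+ cells had both the reporter and ITGA6, and Gata6+Itga6- cells had the reporter without ITGA6. There were 3 samples per population, which the labels call biological replicates of age and sex matched animals; no age is stated, and the labels do not say whether animals were pooled. Transcripts were measured once per sample on an exon array, so precision rests on 3 arrays per population.

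A Wnt ligand is a lipid-modified secreted protein that binds a Frizzled receptor together with Lrp5 or Lrp6. Without it, the destruction complex of Axin, Apc and kinases marks β-catenin for degradation; with it, β-catenin builds up, enters the nucleus and joins TCF/LEF factors on target genes. In skin this pathway is known for its part in forming hair follicles and in waking follicle stem cells at the onset of growth, and Axin2 is both a member of the complex and a widely used target gene.

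Levels are log2 of the deposited intensity plus 1, as the median over a gene's probe sets. The level of silent genes was set at 2.42, since 95% of 1144 olfactory and vomeronasal receptor genes had a mean at or under it. Differences are log2 changes with their standard error (SE), fitted with limma to all 12 arrays, and calls were made at a p under 0.05 after Benjamini-Hochberg adjustment across the genes measured. Where the lower mean was below the level of silent genes, the fold is a lower bound against that level, marked by the words at least. In RNA from a pool of cells, fewer cells of a type and less RNA per cell cannot be told apart.

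Of the genes used in the sort, Cd34 and Gata6 followed the gates. Cd34 stood at 7.95 ± 0.033 (SD, n = 3) in CD34+ cells and at 1.66 to 1.96 in the other populations, and Gata6 was higher in sorted Gata6+Itga6+ (4.39 ± 0.34) and Gata6+Itga6- cells (5.84 ± 0.046) than in CD34+ (2.84) and remaining basal cells (2.73). Itga6 was at 6.02 ± 0.31 in Gata6+Itga6- cells, while CD34+ cells had 6.76, Gata6+Itga6+ cells 7.28 and remaining basal cells 7.67, and its difference between Gata6+Itga6- and CD34+ cells was not called (limma adjusted p = 0.131). The array medians of the intensity ran from 3.97 to 4.57 and the upper quartiles from 12.1 to 17.6. Remaining basal replicates 1 and 2 had the lowest upper quartiles, 12.1 and 12.4. Endothelial genes (5 of 5 measured) and Merkel cell genes (3 of 3) lay under the level of silent genes in all populations, as did 5 of 6 Langerhans cell and macrophage genes. So did 4 of 6 melanocyte genes, while Mlana was at 3.01 in CD34+ and 2.29 in remaining basal cells. The summed melanocyte intensity was 20.0 to 22.1 in CD34+ cells and 16.4 to 18.9 in the other populations. Of 8 dermal fibroblast genes 4 lay under the level of silent genes in all populations, Col3a1 and Dcn among them at 1.82 and 1.63 in CD34+ cells. Fbln1 was at 4.24, Col1a2 at 2.89 and Col1a1 at 2.83 in CD34+ cells, each under 2.42 in the other populations. Vim was lowest in CD34+ cells (2.81) and highest in Gata6+Itga6- cells (3.53). The summed intensity of the list was 38.3 to 52.2 in CD34+ cells against 22.6 to 31.5 in the other populations. Of 5 dermal papilla genes, Sox2 and Corin lay under the level of silent genes in all populations. Crabp1 was at 3.91 in CD34+ cells and under 2.42 elsewhere, while Rspo3 was lower in CD34+ (2.14) than in remaining basal cells (3.20). The summed intensity of that list was 21.4 to 29.0 in CD34+, 17.3 to 24.2 in remaining basal, 16.1 to 17.6 in Gata6+Itga6+ and 12.4 to 15.4 in Gata6+Itga6- cells. Of 5 T cell genes, 1 lay under the level of silent genes in all populations, and none was called in any pair. Thy1 had its highest mean in remaining basal cells (3.88 ± 1.1), whereas Cd3e (2.73) and Cd3g (2.48) had theirs in Gata6+Itga6- cells. The summed T cell intensity was 20.6 to 45.4 in remaining basal, 15.7 to 23.6 in CD34+, 14.2 to 17.5 in Gata6+Itga6+ and 17.7 to 30.2 in Gata6+Itga6- cells. The part of such cells in the results below was not tested.

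By the median over its probe sets, 13 members lay above the level of silent genes in all 4 populations, 12 in some and 13 in none. The members above it in every population were mostly receptors and intracellular proteins: Fzd3, Fzd5, Fzd6, Fzd7, Lrp5, Lrp6, Axin1, Axin2, Apc, Ctnnb1 (β-catenin), Tcf7 and Tcf7l2, with Wnt10a as the 1 ligand by gene level. Single probe sets of other ligands, such as Wnt4, Wnt7b and Wnt16, stood above the level of silent probe sets, 2.90, in all populations. By gene level, 9 of the 19 ligands lay above 2.42 in some populations and 9 in none, and so did 3 and 3 of the 10 Frizzleds. Across the populations, 10 of 38 members differed by limma's F test (26.3%, against 9.38% of all genes): Wnt3, Wnt5a, Wnt10a, Fzd2, Fzd3, Fzd7, Lrp6, Axin2, Tcf7l2 and Ctnnb1. Wnt16 was called in 1 pair of populations only, which made 11 members and 26 calls of a member in a pair. The count fell to 6 members without remaining basal replicate 1. The calls of Lrp6 and Wnt3 in the F test were each lost in 10 of 12 fits that left out 1 array, with adjusted p up to 0.130 and 0.0866. Those of Wnt10a, Ctnnb1 and Fzd2 were lost in 4, 2 and 1 of these fits (up to 0.0966, 0.105 and 0.0531). Some F test calls were also lost with other processing, such as Lrp6 with quantile normalization (0.0619) and Ctnnb1 with the mean of probe sets (0.155).

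**Figure D1:**
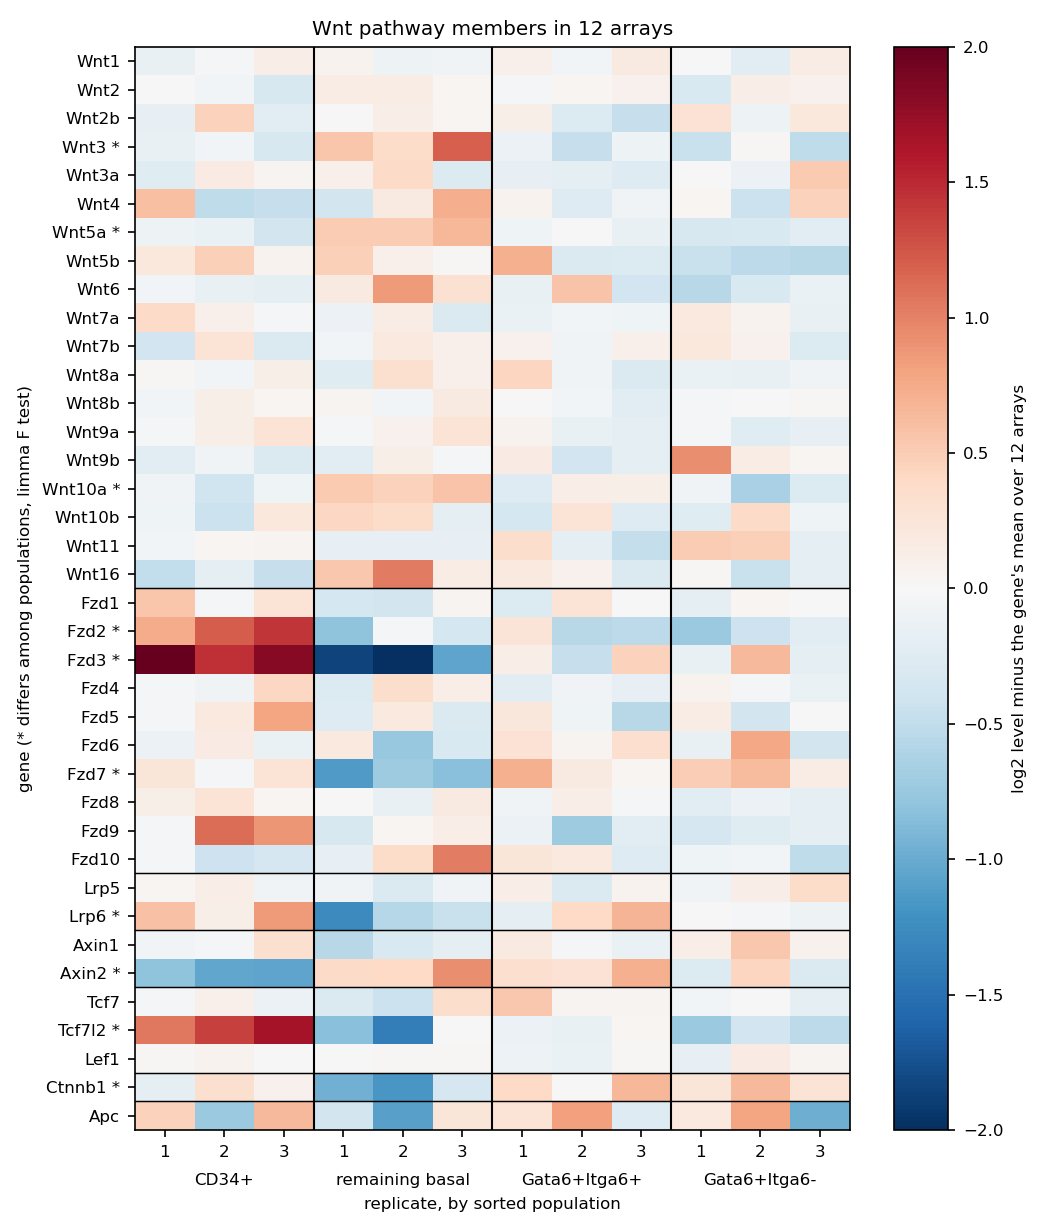
Log2 level of the 38 measured members in each of the 12 arrays, minus the gene's mean over the arrays, with colours limited to 2 in either direction; horizontal lines part the roles, vertical lines the populations, and stars mark the 10 members called by the F test. Fzd3, Fzd2 and Tcf7l2 are high in CD34+ arrays, Axin2 is low in them, and Wnt3, Wnt5a and Wnt10a are high in the remaining basal arrays.

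CD34+ and remaining basal cells were the pair with the most members called: 9 of 38, against 5.00% of all genes. In CD34+ cells 5 members were higher (3.32% of all genes): the Frizzleds Fzd2, Fzd3 and Fzd7, Lrp6 and Tcf7l2. The ligands Wnt5a, Wnt10a and Wnt16 and also Axin2, 4 in all, were lower (1.67% of all genes). The members' median log2 change was 0.03 and that of all genes 0.02. The count was 5 without CD34+ replicate 3 and also without remaining basal replicate 1, and 5 to 10 over all 12 fits that left out 1 array.

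Gata6+Itga6- cells differed from remaining basal cells in 6 members (5.11% of all genes), with Fzd3, Fzd7 and Ctnnb1 higher (2.96%) and Wnt3, Wnt5a and Wnt10a lower (2.15%). Gata6+Itga6+ cells differed from remaining basal cells in 3 (1.36% of all genes), with Fzd7 and Ctnnb1 higher (1.07%) and Wnt5a lower (0.286%). That last count became 1 without remaining basal replicate 1 or Gata6+Itga6+ replicate 1 or 3, and 5 without remaining basal replicate 3. Against CD34+ cells, the 4 members called in Gata6+Itga6+ cells (4.59% of all genes) and the 4 called in Gata6+Itga6- cells (7.96% of all genes) bore the same names. Axin2 was higher (2.40% of all genes for Gata6+Itga6+, 3.22% for Gata6+Itga6-), and Fzd2, Fzd3 and Tcf7l2 were lower (2.18% and 4.74%). These comparisons share their CD34+ arrays. The count for Gata6+Itga6+ was 1 without CD34+ replicate 2 or 3 or without Gata6+Itga6+ replicate 2 or 3, and 2 without Gata6+Itga6+ replicate 1; that for Gata6+Itga6- was 2 without CD34+ replicate 2 or 3.

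No member was called between Gata6+Itga6- and Gata6+Itga6+ cells, where limma called 3.18% of all genes (1.17% higher, 2.01% lower). At an unadjusted limma p under 0.05, 2 members differed, Wnt5b and Wnt9b, against 13.4% of all genes. The smallest adjusted p among the members was 0.362. With only the brightest probe set of each gene, 1 member was called. The 95% interval of the difference (Gata6+Itga6- minus Gata6+Itga6+) ran from -0.33 to 0.56 for Fzd7, from -0.50 to 0.58 for Ctnnb1, from -0.98 to 0.01 for Axin2 and from -1.13 to 0.19 for Tcf7l2. Changes of that size are not shown to be absent.

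**Figure D2:**
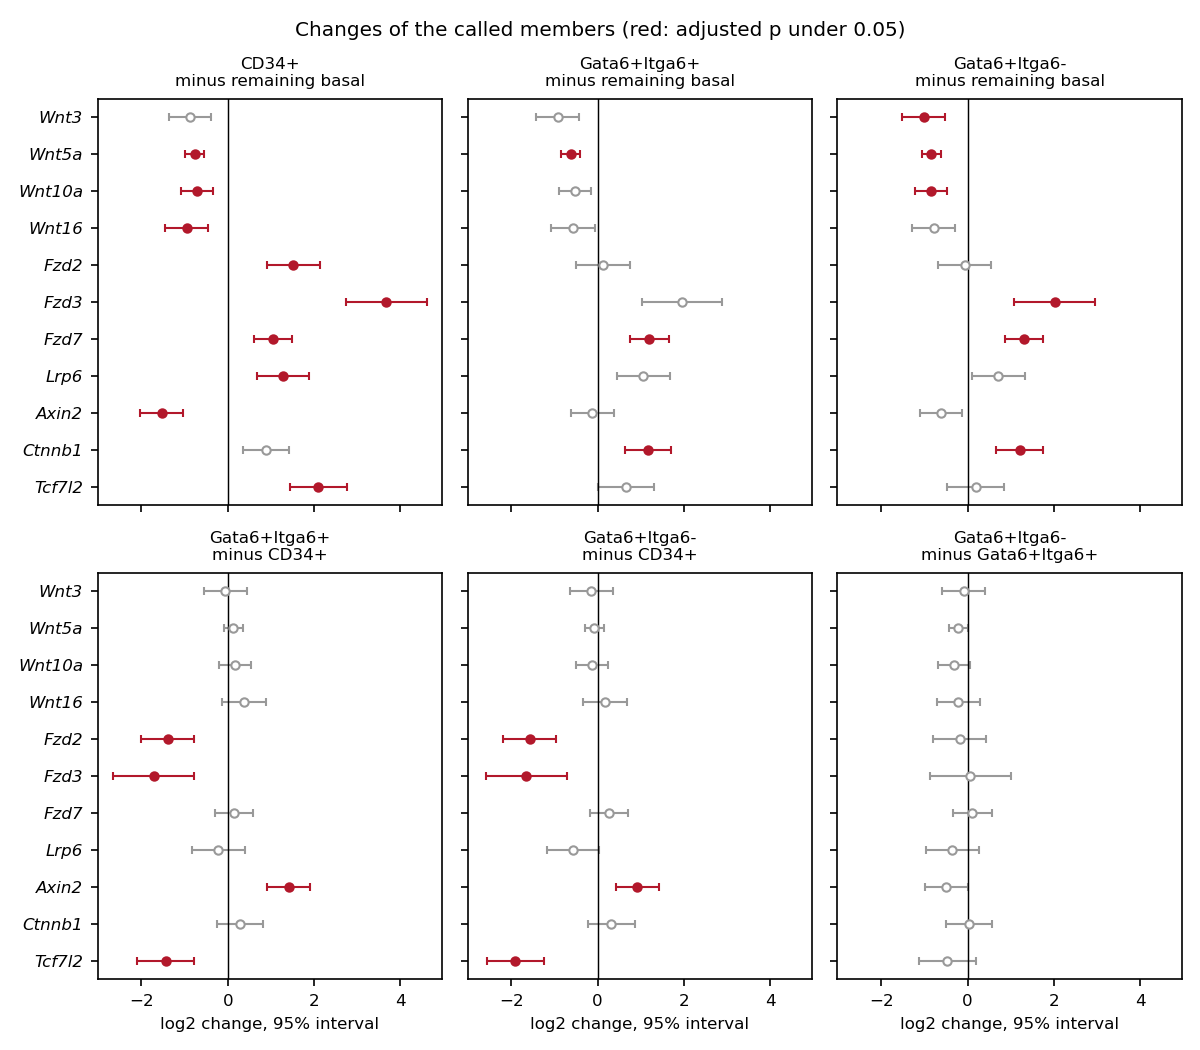
Log2 change of the 11 members called in at least 1 pair, with 95% intervals, in the 6 pairs of populations (limma, 3 arrays per population); red points are called at an adjusted p under 0.05. Points of Fzd3, Fzd7, Lrp6 and Tcf7l2 lie right of 0 for CD34+ minus remaining basal cells, and no point is red for Gata6+Itga6- minus Gata6+Itga6+ cells.

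Among the ligands, remaining basal cells had the highest levels of the 4 that were called. Wnt10a, a ligand that acts through β-catenin in hair and tooth development, was at 3.76, 3.69 and 3.80 in remaining basal replicates 1 to 3 and at 3.16, 2.83 and 3.15 in CD34+ replicates. It was at 2.97, 3.36 and 3.34 in Gata6+Itga6+ and at 3.17, 2.58 and 2.96 in Gata6+Itga6- cells. The 3 remaining basal arrays thus lay above all the others, and the other populations overlapped. Against remaining basal cells, Wnt10a was 1.80-fold lower in Gata6+Itga6- cells (log2 change of -0.85, SE 0.17, limma adjusted p = 0.0147). It was 1.63-fold lower in CD34+ than in remaining basal cells (-0.71, adjusted p = 0.0377), but this call was lost in 9 of 12 fits that left out 1 array (adjusted p 0.0522 to 0.125) and held without Gata6+Itga6+ replicate 1 and without Gata6+Itga6- replicate 1 or 2. The change for Gata6+Itga6+ cells, -0.53, was not called (adjusted p = 0.225).

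Wnt3, a ligand of the β-catenin branch, was at 2.51, 2.31 and 3.14 in remaining basal cells, at 1.80, 1.90 and 1.63 in CD34+, at 1.83, 1.49 and 1.85 in Gata6+Itga6+ and at 1.50, 1.97 and 1.43 in Gata6+Itga6- cells. Again the remaining basal arrays lay above all the rest. Their mean was above the level of silent genes and the other means were under it. Limma called the difference only for Gata6+Itga6- cells (-1.02 on the log2 scale, SE 0.22, adjusted p = 0.0244, at least 1.17-fold lower), and not without Gata6+Itga6- replicate 1 (0.0874) or 3 (0.0945). For CD34+ and Gata6+Itga6+ cells the adjusted p was 0.0518 and 0.0910.

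Wnt5a, the best known ligand of the branches that do not use β-catenin, was at 2.33, 2.34 and 2.48 in remaining basal cells. It was at 1.72, 1.70 and 1.46 in CD34+, at 1.75, 1.84 and 1.69 in Gata6+Itga6+ and at 1.50, 1.52 and 1.61 in Gata6+Itga6- cells, so the remaining basal arrays did not overlap with any other. The log2 changes against remaining basal cells were -0.76 for CD34+ (SE 0.099, limma adjusted p = 0.00125), -0.63 for Gata6+Itga6+ (0.0129) and -0.84 for Gata6+Itga6- cells (0.000589). Since no mean reached the level of silent genes, no fold is given. The part of the T cell genes described above in these ligand differences was not tested. The call for Gata6+Itga6+ cells was lost without Gata6+Itga6+ replicate 1 (0.0509) or 3 (0.0588). Wnt16, also a ligand, was at 2.56, 3.06 and 2.16 in remaining basal, 1.52, 1.84 and 1.55 in CD34+, 2.21, 2.10 and 1.73 in Gata6+Itga6+ and 2.03, 1.57 and 1.82 in Gata6+Itga6- cells. The CD34+ and Gata6+Itga6- arrays lay under those of remaining basal cells, and the difference was called for CD34+ cells (-0.95, SE 0.23, limma adjusted p = 0.0388, at least 1.12-fold) but not for Gata6+Itga6- cells (0.0897). That call was lost in 7 of 12 fits that left out 1 array (0.0557 to 0.124): without any of the 3 CD34+ arrays, remaining basal replicate 1 or 2, Gata6+Itga6+ replicate 2 or Gata6+Itga6- replicate 3.

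These gene levels are medians over probe sets, and a gene of which few exons are measured well has a median close to the floor. A second fit over 221205 single probe sets was therefore made after the values were seen, and the probe sets named here are those with the widest change. For Wnt3, 1 of 6 probe sets was at 6.69, 6.65 and 7.33 in remaining basal cells and at 2.86, 3.38 and 2.34 in CD34+ cells. It was at 5.04, 6.0 and 3.90 in Gata6+Itga6+ and at 3.22, 2.65 and 2.87 in Gata6+Itga6- cells. On this probe set remaining basal cells were at least 15.9-fold above CD34+ cells (limma adjusted p = 0.00102 over all probe sets) and 15.7-fold above Gata6+Itga6- cells (0.00142), with Gata6+Itga6+ cells in between. The changes of Gata6+Itga6+ cells against remaining basal, CD34+ and Gata6+Itga6- cells had adjusted p of 0.168, 0.0555 and 0.0897.

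For Wnt5a, the probe set with the widest change was at 5.26, 5.13 and 6.56 in remaining basal cells and between 1.20 and 1.87 in the 9 other arrays. This was at least 6.74-fold higher than in each other population (limma adjusted p = 9.3e-05 for CD34+, 0.000598 for Gata6+Itga6+ and 0.000111 for Gata6+Itga6- cells), and 3, 1 and 4 of 15 probe sets were called in these pairs. A Wnt16 probe set stood at 3.64 ± 0.41 in remaining basal cells against 1.34 ± 0.12 in CD34+ and 1.41 ± 0.12 in Gata6+Itga6- cells (adjusted p = 0.00598 and 0.00811). It was the only 1 of 8 called in these pairs, and a brighter one was at 4.87 in CD34+ and 5.32 in Gata6+Itga6- cells. With the median of only the probe sets above the level of silent genes, the log2 change of Wnt16 in CD34+ minus remaining basal cells was 0.011. Single probe sets of ligands that were not called by gene also differed. Wnt5b had one at 4.58 ± 0.42 in CD34+ and 2.04 ± 0.016 in Gata6+Itga6- cells (0.00118). For Wnt10b, probe sets moved in opposite directions: one stood at 4.86 ± 0.63 in Gata6+Itga6- cells and 2.56 ± 0.53 in remaining basal cells (adjusted p = 0.0186), and another was higher in remaining basal (3.37 ± 0.42) than in CD34+ cells (1.55 ± 0.20, adjusted p = 0.00634).

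**Figure D3:**
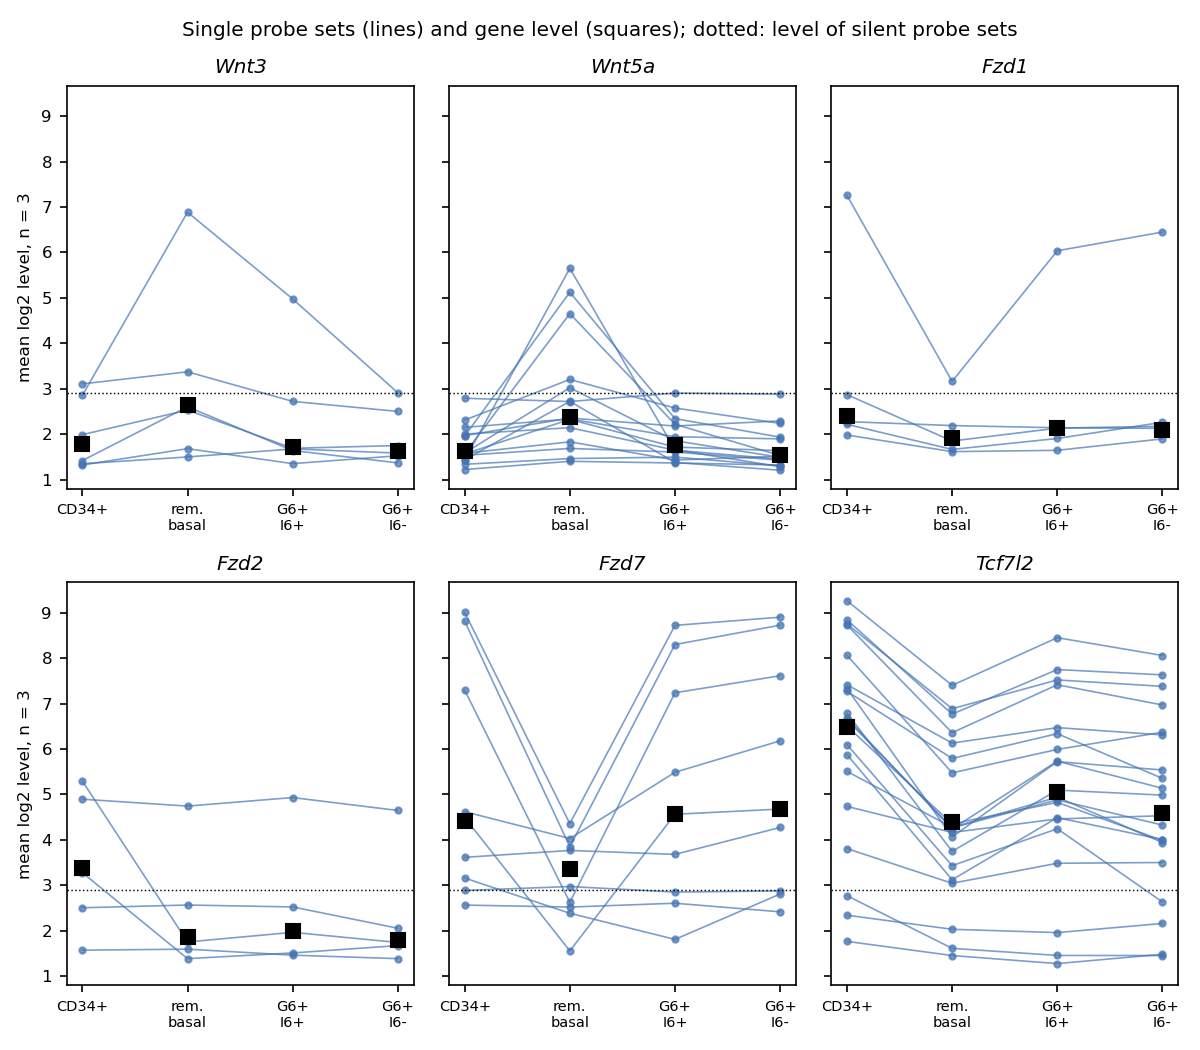
Mean log2 level (n = 3) of every probe set (lines) and the gene level (squares) of Wnt3, Wnt5a, Fzd1, Fzd2, Fzd7 and Tcf7l2 in the 4 populations; the dotted line is the level of silent probe sets, 2.90. Single probe sets of Wnt3, Wnt5a, Fzd1 and Fzd2 change by several log2 units where the gene level is near the floor, whereas all 20 Tcf7l2 probe sets fall from CD34+ to remaining basal cells.

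Of the ligands with no call, Wnt2b, Wnt4, Wnt5b, Wnt6, Wnt9a, Wnt9b and Wnt10b had a gene level above 2.42 in at least 1 population, with means between 1.74 and 2.73. Wnt1, Wnt2, Wnt3a, Wnt7a, Wnt7b, Wnt8a, Wnt8b and Wnt11 lay under it in all populations, at means of the gene level between 1.46 and 2.28. Single probe sets of these ligands, picked after their values were seen, stood higher. One of Wnt7b was at 6.62 in remaining basal, 6.19 in CD34+ and 5.17 in Gata6+Itga6- cells, without a call (limma adjusted p = 0.0528 for Gata6+Itga6- against remaining basal cells), and one of Wnt7a was at 3.75 to 4.22 over the population means. Wnt4, a ligand known from skin and kidney, ranged from 1.82 to 2.92 within CD34+ cells alone, which is as wide as its range over all 12 arrays apart from the 3.05 of remaining basal replicate 3. One Wnt4 probe set stood at 6.63 in remaining basal, 5.69 in Gata6+Itga6+ and 5.79 among Gata6+Itga6- cells, also without a call.

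Of the 10 Frizzled receptors, which carry the Wnt-binding domain at the cell surface, 3 were called, and Fzd3 had the widest change in gene level of any member. Fzd3, a receptor also used in planar polarity and axon guidance, was at 6.63, 6.09 and 6.44 in CD34+ cells and at 2.78, 1.79 and 3.57 in remaining basal cells. Gata6+Itga6+ cells had 4.77, 4.16 and 5.08 and Gata6+Itga6- cells 4.48, 5.27 and 4.45. The CD34+ arrays were highest, the remaining basal arrays lowest, and the Gata6+ populations lay between without separating from each other (adjusted p = 0.984). Fzd3 was 12.8-fold higher in CD34+ than in remaining basal cells (log2 change 3.67, SE 0.42, limma adjusted p = 0.000509), a call kept in every alternative setting. All 15 Fzd3 probe sets had the same sign in this pair, and 9 were called.

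Against CD34+ cells, Fzd3 was 3.28-fold lower in Gata6+Itga6+ (adjusted p = 0.0487) and 3.15-fold lower in Gata6+Itga6- cells (0.0382), and against remaining basal cells it was 4.05-fold higher in Gata6+Itga6- cells (0.0202). The difference of Gata6+Itga6+ from remaining basal cells, 1.96, missed the threshold (adjusted p = 0.0608). The call of Gata6+Itga6+ against CD34+ cells held only without remaining basal replicate 2 or 3 and was lost in the 10 other fits that left out 1 array (0.050 to 0.159). That of Gata6+Itga6- against CD34+ cells was lost in 7 (up to 0.132: any CD34+ array, remaining basal replicate 1, Gata6+Itga6+ replicate 1, Gata6+Itga6- replicate 1 or 3), and that of Gata6+Itga6- against remaining basal cells without Gata6+Itga6- replicate 2 (0.0829) or remaining basal replicate 1 (0.0566) or 2 (0.0505).

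Fzd2 was at 3.00, 3.47 and 3.69 in CD34+ cells, at 1.46, 2.22 and 1.92 in remaining basal, 2.51, 1.71 and 1.74 in Gata6+Itga6+ and 1.52, 1.85 and 2.04 in Gata6+Itga6- cells. The CD34+ arrays lay above all 9 others, and the mean of CD34+ cells was the only one above the level of silent genes. The log2 change of CD34+ minus remaining basal cells was 1.52 (SE 0.28, limma adjusted p = 0.00947), of Gata6+Itga6+ minus CD34+ cells -1.39 (0.0168) and of Gata6+Itga6- minus CD34+ cells -1.58 (0.00505), each at least 1.94-fold. The call for Gata6+Itga6+ was lost without CD34+ replicate 2 (0.0581) or 3 (0.0641) or Gata6+Itga6+ replicate 2 (0.0678) or 3 (0.0716). The summed dermal fibroblast intensity was also highest in CD34+ cells (38.3 to 52.2), and its part in this difference was not tested. With only its brightest probe set, Fzd2 was not called in any of these pairs and its change of Gata6+Itga6+ minus CD34+ cells was 0.04. The brightest of the 5 probe sets stood at about the same level in all populations, while 2 of 5 were called in each of these pairs, and the widest of them was at 5.21, 5.79 and 4.89 in CD34+ cells against 1.46 to 2.51 in the 9 other arrays (at least 5.26-fold, adjusted p 0.000142 to 0.000404).

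Fzd7, a receptor expressed in many stem and progenitor cells, had a gap of another kind: it was low in remaining basal cells, and the other populations overlapped. It was at 3.12, 3.55 and 3.42 in remaining basal cells, at 4.50, 4.21 and 4.53 in CD34+, at 4.97, 4.43 and 4.29 in Gata6+Itga6+ and at 4.75, 4.88 and 4.40 in Gata6+Itga6- cells. The 9 other arrays all lay above the 3 of remaining basal cells. Fzd7 was 2.08-fold higher in CD34+ (log2 change 1.05, SE 0.20, limma adjusted p = 0.0122), 2.30-fold in Gata6+Itga6+ (0.0175) and 2.49-fold in Gata6+Itga6- cells (0.00328). The last call was kept in every alternative setting. The first was lost without CD34+ replicate 3 (0.0516) or remaining basal replicate 1 (0.0508), and the second without remaining basal replicate 1 (0.0734). The second was also lost with a brightness covariate, each array's log2 upper quartile (0.123), and in a fit of only the 2 populations (0.102). With a pseudocount of 16 (0.0553) or with trend and robust variances (0.0622) it was not called either.

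Single Fzd7 probe sets showed wider gaps. One was at 3.27, 3.55 and 4.73 in remaining basal cells and at 8.76, 8.52 and 9.16 in CD34+ cells, 31.2-fold higher (limma adjusted p = 3.0e-05 over all probe sets). The same probe set was at 8.24 to 8.40 in Gata6+Itga6+ and at 8.48 to 9.07 in Gata6+Itga6- cells. In CD34+ and Gata6+Itga6+ cells 4 of 9 probe sets were called against remaining basal cells, and 5 of 9 in Gata6+Itga6- cells; the others stayed near the floor or moved little.

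Fzd1 lay under the level of silent genes as a gene. Yet 1 of its 5 probe sets, picked after its values were seen, was lowest in remaining basal and highest in CD34+ cells. It was at 6.93, 7.41 and 7.43 in CD34+, 5.68, 6.25 and 6.18 in Gata6+Itga6+ and 6.18, 6.70 and 6.46 in Gata6+Itga6- cells, and at 2.05, 2.77 and 4.67 in remaining basal cells. All 9 arrays of the former lay above the 3 of the latter, 17.1-fold for CD34+ cells (limma adjusted p = 0.00202) and 9.75-fold for Gata6+Itga6- cells (0.00875), while the difference for Gata6+Itga6+ cells had an adjusted p of 0.0504. Fzd8 and Fzd5 each had a probe set that was highest in CD34+ cells. That of Fzd8 was at 5.21 ± 0.26 there, 3.53 ± 0.28 in Gata6+Itga6+ (adjusted p = 0.0240) and 2.61 ± 0.44 in Gata6+Itga6- cells (0.000899), with remaining basal cells at 3.33 ± 0.57 (0.0101). That of Fzd5 was at 4.13 ± 0.84 in CD34+ cells and 1.63 ± 0.15 in remaining basal cells (0.00376).

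Over all members, 40 of 401 probe sets were called between CD34+ and remaining basal cells, in 14 members (2.50% of all probe sets). There were 20 between Gata6+Itga6- and remaining basal cells (2.38%), 16 between Gata6+Itga6- and CD34+ cells (3.98%), 9 between Gata6+Itga6+ and CD34+ cells (1.86%), 6 between Gata6+Itga6+ and remaining basal cells (0.528%) and 1, of Wnt9b, between Gata6+Itga6- and Gata6+Itga6+ cells (0.933%). Probe sets of 1 gene share its transcripts and are not replicates, and their place in the gene was not used here.

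The other Frizzleds were not called. Fzd6, known for hair follicle orientation in mouse skin, was bright in all populations, at 3.76 to 5.29, with overlapping arrays (adjusted p = 0.712 in the F test). Fzd5 was at 2.23 to 3.58. Fzd9, measured by 1 probe set, was at 2.57, 3.72 and 3.50 in CD34+ and 1.89 to 2.75 in the other arrays (adjusted p = 0.123 in the F test). Fzd10 was at 1.96 to 3.49, and Fzd4 and Fzd8 lay under the level of silent genes.

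**Figure D4:**
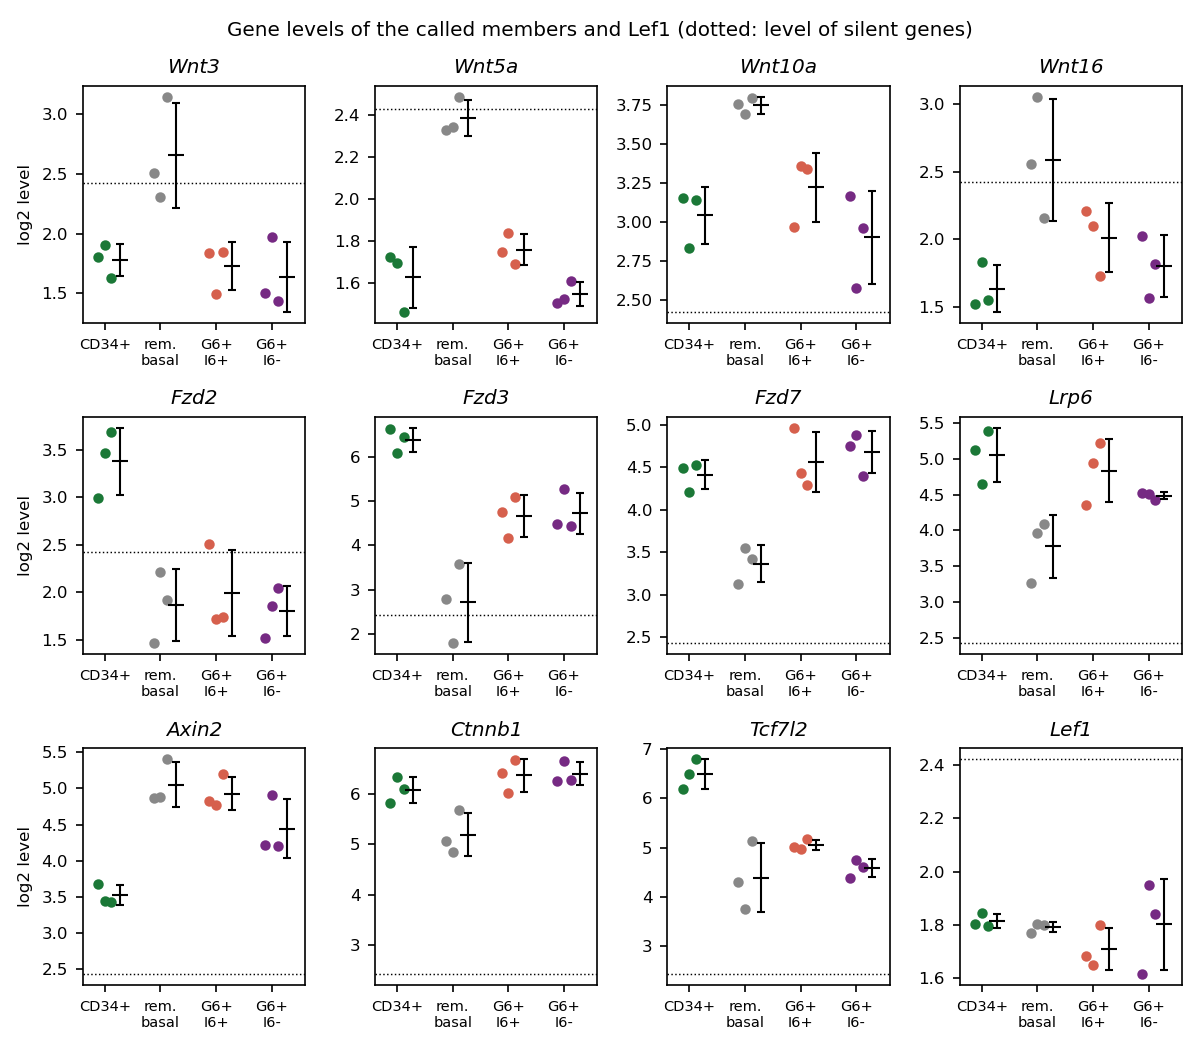
Gene level (log2) in each array (points) with mean and SD (bars, n = 3) for the 11 called members and Lef1 in the 4 populations (G6, Gata6; I6, Itga6; rem., remaining); the dotted line is the level of silent genes, 2.42, and each panel has its own scale. Tcf7l2, Fzd2 and Fzd3 are highest in CD34+ cells, Fzd7 and Ctnnb1 lowest in remaining basal cells, and Axin2 lowest in CD34+ cells.

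The co-receptors Lrp5 and Lrp6 pair with Frizzled to pass the signal to Axin. Lrp6 was at 5.13, 4.65 and 5.40 in CD34+ cells, 3.27, 3.97 and 4.09 in remaining basal, 4.35, 4.94 and 5.22 in Gata6+Itga6+ and 4.53, 4.50 and 4.43 in Gata6+Itga6- cells. All arrays of the other populations lay above those of remaining basal cells, but the only called pair was CD34+ against remaining basal (2.43-fold, log2 change 1.28, SE 0.28, limma adjusted p = 0.0233). It was lost without CD34+ replicate 1 (0.0683) or 3 (0.0921) or remaining basal replicate 1 (0.0731). The brightness covariate (0.0786) and a fit of only the 2 populations (0.0957) lost this call too. So did the median of probe sets above the level of silent genes (0.0918). Of 26 Lrp6 probe sets, 24 had the same sign in that pair and 2 were called. Lrp5 was at 3.61 to 4.27 in all arrays, with populations that overlapped.

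In the destruction complex, Axin2 was the member that changed. It was at 3.68, 3.45 and 3.43 in CD34+ cells, at 4.86, 4.88 and 5.41 in remaining basal, at 4.82, 4.77 and 5.19 in Gata6+Itga6+ and at 4.21, 4.91 and 4.20 in Gata6+Itga6- cells. The CD34+ arrays lay under all 9 others. CD34+ cells had 2.90-fold less than remaining basal cells (log2 change -1.53, SE 0.22, limma adjusted p = 0.00238), and Gata6+Itga6+ cells had 2.66-fold more than CD34+ cells (1.41, adjusted p = 0.00476). Both calls were kept without each array in turn but not with the brightest probe set alone (0.169 and 0.141), and all 16 Axin2 probe sets had the same sign in both pairs. Gata6+Itga6- cells had 1.90-fold more than CD34+ cells (0.92, adjusted p = 0.0291), a call lost without CD34+ replicate 2 (0.0855) or 3 (0.0941) or Gata6+Itga6- replicate 2 (0.0781).

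Axin1, the scaffold that is present in most cells, was at 2.74, 2.99 and 3.11 in remaining basal cells and at 3.16 to 3.83 in the 9 other arrays, without a call (adjusted p = 0.161 in the F test). Apc, the other large scaffold, varied within populations more than between them: it was at 2.64 to 4.03 in CD34+, 2.31 to 3.64 in remaining basal, 3.13 to 4.21 in Gata6+Itga6+ and 2.42 to 4.19 in Gata6+Itga6- cells.

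Ctnnb1, which encodes β-catenin, acts both in adherens junctions and as the nuclear carrier of the Wnt signal. It was at 5.06, 4.85 and 5.68 in remaining basal cells, 5.82, 6.33 and 6.09 in CD34+, 6.41, 6.01 and 6.67 in Gata6+Itga6+ and 6.26, 6.66 and 6.28 in Gata6+Itga6- cells. The remaining basal arrays were the lowest 3 of the 12. Over remaining basal cells, Ctnnb1 was 2.31-fold higher in Gata6+Itga6- cells by limma (log2 change 1.21, SE 0.24, adjusted p = 0.0164) and 2.25-fold higher in Gata6+Itga6+ cells (1.17, 0.0498); for CD34+ cells the change of 0.89 was not called (0.0711). The call of Gata6+Itga6+ cells held only without remaining basal replicate 3 or Gata6+Itga6+ replicate 2 (0.0600 to 0.192 in the 10 others that left out 1 array), and it was also lost in 10 of 12 settings that changed the processing or the model (0.0648 to 0.832). That of Gata6+Itga6- cells was lost without Gata6+Itga6- replicate 2 (0.0709) or remaining basal replicate 1 (0.0614) or 2 (0.0669). With only the brightest of 18 probe sets neither was called (0.832 and 0.961).

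The TCF/LEF factors bind DNA and switch from repression to activation when β-catenin joins them. Tcf7l2 was at 6.18, 6.50 and 6.80 in CD34+ cells, 4.30, 3.75 and 5.13 in remaining basal, 5.01, 4.98 and 5.17 in Gata6+Itga6+ and 4.39, 4.75 and 4.61 in Gata6+Itga6- cells. The CD34+ arrays lay at least 1 log2 unit above all others, and remaining basal replicate 3 reached into the range of Gata6+Itga6+ cells. Tcf7l2 was 4.30-fold higher in CD34+ than in remaining basal cells (log2 change 2.10, SE 0.30, limma adjusted p = 0.0020), a call kept in every alternative setting. Relative to CD34+ cells it was 3.76-fold lower in Gata6+Itga6- (0.00232) and 2.72-fold lower in Gata6+Itga6+ cells (0.0198). The last call was lost without CD34+ replicate 2 (0.0600) or 3 (0.0719) or Gata6+Itga6+ replicate 1 (0.0662), 2 (0.0679) or 3 (0.0542). All 20 Tcf7l2 probe sets had the same sign in these pairs, with 10, 7 and 2 called.

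The other factors did not follow Tcf7l2. Tcf7 was at 2.92 to 3.88 with overlapping populations (adjusted p = 0.695 in the F test). Lef1, which is known from the growing hair bulb, was at 1.61 to 1.95 in all arrays, under the level of silent genes, over 16 probe sets.

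The sequence before the transcription start is shown for Fzd7, Tcf7l2 and Axin2, since these are a receptor, a factor and a target gene that changed between populations in different ways. The sequences are from RefSeq on build GRCm38.p6, 250 bases before the annotated start, 5′ to 3′ on the gene's strand, with TCF/LEF core motifs in capitals. The motifs searched were CTTTGA and CTTTGT and, on the other strand, TCAAAG and ACAAAG, which do not overlap one another in these windows. Of 32851 windows of this length, 27.6% held at least 1 match, and of the 35 windows found for 26 of the members 7 did (20.0%). The Fzd7 window, on the plus strand at chr1:59481897-59482146, held 1 match that begins 129 bases before the start. The Tcf7l2 windows, on the plus strand at chr19:55741560-55741809 and chr19:55895071-55895320, belong to separate annotated starts; the first held none and the second 1, 14 bases before the start. The Axin2 window, on the plus strand at chr11:108920099-108920348, held none. A match is a description of letters, and its absence says only that these letters are not in the window.
Fzd7: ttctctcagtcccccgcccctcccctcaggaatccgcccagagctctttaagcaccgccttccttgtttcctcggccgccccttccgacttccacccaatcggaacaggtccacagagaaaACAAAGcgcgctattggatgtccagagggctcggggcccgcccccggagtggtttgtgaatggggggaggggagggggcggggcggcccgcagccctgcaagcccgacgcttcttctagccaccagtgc
Tcf7l2, first start: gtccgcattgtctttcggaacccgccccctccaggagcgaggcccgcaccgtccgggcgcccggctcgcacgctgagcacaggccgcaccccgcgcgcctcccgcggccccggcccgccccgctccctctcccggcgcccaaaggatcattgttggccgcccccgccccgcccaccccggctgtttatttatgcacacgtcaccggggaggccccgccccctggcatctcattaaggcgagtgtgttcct
Tcf7l2, second start: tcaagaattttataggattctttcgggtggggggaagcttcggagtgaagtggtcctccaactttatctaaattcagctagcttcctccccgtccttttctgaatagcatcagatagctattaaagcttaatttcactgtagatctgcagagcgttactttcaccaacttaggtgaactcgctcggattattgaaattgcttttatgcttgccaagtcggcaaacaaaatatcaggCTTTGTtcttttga
Axin2: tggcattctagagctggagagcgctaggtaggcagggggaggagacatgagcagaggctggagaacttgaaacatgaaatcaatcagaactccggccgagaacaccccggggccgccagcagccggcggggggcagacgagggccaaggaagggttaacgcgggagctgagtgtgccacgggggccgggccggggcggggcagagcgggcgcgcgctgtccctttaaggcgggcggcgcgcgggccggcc

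Other genes of the pathway were followed in 5 lists of 66 measured genes (Celsr2 was not analysed here). By the F test 13 of 66 were called (19.7%, against 9.38% of all genes): 4 of 17 secretion and receptor partners, 1 of 16 cytoplasmic carriers, 1 of 15 nuclear partners, 6 of 9 target genes and 1 of 9 planar polarity genes. Between Gata6+Itga6- and CD34+ cells 12 were called (4 higher, 8 lower; 7.96% of all genes), between Gata6+Itga6- and remaining basal cells 8 (3 and 5; 5.11%), and between CD34+ and remaining basal cells 5 (3 and 2; 5.00%). Between Gata6+Itga6+ and CD34+ cells there were 5 (2 and 3; 4.59% of all genes), between Gata6+Itga6- and Gata6+Itga6+ cells 3 (0 and 3; 3.18%), and between Gata6+Itga6+ and remaining basal cells 1, which was higher (1.36%).

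Among the receptor partners, the R-spondin receptors, which stabilise Frizzled at the surface when bound by R-spondin, differed most. Lgr5, a marker of bulge and other stem cells, was at 5.88, 5.65 and 5.70 in CD34+ cells and at 1.63 to 2.22 in the 9 other arrays, at least 9.97-fold higher there (limma adjusted p 4.1e-08 to 1.1e-07). With only its brightest probe set the sign of this difference turned against remaining basal and Gata6+Itga6- cells. Of the other bulge genes followed, Krt24 was also under 2.42 on average outside CD34+ cells. Lhx2, Sox9 and Nfatc1 had means of 4.27 to 5.67 in the Gata6+ populations and 2.57 to 2.81 in remaining basal cells. Lgr4 was at 5.83, 6.17 and 6.37 in CD34+, 5.58, 5.37 and 5.28 in Gata6+Itga6+, 4.20, 5.34 and 4.51 in Gata6+Itga6- and 2.50, 2.86 and 3.18 in remaining basal cells. The remaining basal arrays were thus the lowest, as they were for Fzd3, Fzd7 and Lrp6. Against them Lgr4 was 9.72-fold higher in CD34+ (log2 change 3.28, SE 0.28, adjusted p = 5.8e-05), 5.91-fold in Gata6+Itga6+ (0.00152) and 3.58-fold in Gata6+Itga6- cells (0.00332). With only the brightest Lgr4 probe set, the calls of Gata6+Itga6+ (0.232) and Gata6+Itga6- cells (0.101) were lost.

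Lgr6, picked after its values were seen, was at 4.14, 4.13 and 3.98 in Gata6+Itga6+ and 2.47, 2.58 and 2.13 in Gata6+Itga6- cells, at least 3.15-fold lower in the latter (limma adjusted p = 0.0198). That call was lost without any 1 of the 3 Gata6+Itga6+ arrays (0.0610 to 0.0648) or without Gata6+Itga6- replicate 1 (0.0605) or 3 (0.0826). Rspo3, an R-spondin ligand, was at 3.80, 2.75 and 3.05 in remaining basal, 2.08, 2.25 and 2.08 in CD34+, 2.41, 2.89 and 2.78 in Gata6+Itga6+ and 1.74, 2.23 and 1.77 in Gata6+Itga6- cells. It was at least 1.71-fold lower in Gata6+Itga6- (adjusted p = 0.0138) and CD34+ cells (0.0374) than in remaining basal cells. The former call was lost without Gata6+Itga6- replicate 1 (0.0560) or 3 (0.0556), and the latter in 9 of 12 fits that left out 1 array (0.0529 to 0.116), all but those without remaining basal replicate 2, Gata6+Itga6+ replicate 1 or Gata6+Itga6- replicate 2. Rspo3 is also on the list of dermal papilla genes, of which 2 of 5 lay under the level of silent genes in all populations; its summed intensity was 17.3 to 24.2 in remaining basal, 21.4 to 29.0 in CD34+ and 12.4 to 17.6 in Gata6+ cells.

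In the cytoplasm, Btrc, the ubiquitin ligase subunit that recognises marked β-catenin, was at 2.91, 2.81 and 3.05 in CD34+ cells and at 1.99 to 2.52 in the 9 other arrays. It was at least 1.41-fold higher in CD34+ than in Gata6+Itga6- (limma adjusted p = 0.00077), Gata6+Itga6+ (0.00324) and remaining basal cells (0.0123), the last call being lost without CD34+ replicate 3 (0.0532) or remaining basal replicate 2 (0.0506). With the brightest probe set its change of CD34+ minus remaining basal cells was -0.37. The other 15 carriers, with the Dishevelled, Gsk3 and casein kinase genes among them, were not called.

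Of the nuclear partners, Hipk2, a kinase that acts on TCF factors, was at 2.95, 3.36 and 3.31 in CD34+ and 4.32, 5.28 and 4.13 in Gata6+Itga6- cells, 2.58-fold higher in the latter (limma adjusted p = 0.00766), with the Gata6+Itga6+ arrays (3.7 to 3.97) between and the remaining basal arrays (3.95 to 4.22) overlapping with those of Gata6+Itga6- cells. Tle3, a corepressor of TCF factors, was also higher in Gata6+Itga6- (4.57, 4.87 and 4.36) than in CD34+ cells (2.80, 3.51 and 3.20; 2.70-fold, 0.0229). Pygo1, a cofactor of β-catenin, was lower in Gata6+Itga6- (1.58, 2.53 and 2.03) than in CD34+ cells (3.33, 2.93 and 4.41; at least 2.19-fold, 0.0229). The call of Tle3 was lost without CD34+ replicate 1 (0.0807) or 3 (0.0641) or Gata6+Itga6- replicate 1 (0.0654) or 2 (0.0834), and that of Pygo1 without Gata6+Itga6- replicate 1 (0.0893) or 3 (0.0717). The call of Hipk2 was kept without each array in turn. It was lost with the brightest probe set (0.0927) and in the fit of only the 2 populations (0.0664).

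The target genes ran in different directions: of 9, 5 were called between Gata6+Itga6- and CD34+ cells, 2 higher and 3 lower, against 7.96% of all genes (3.22% higher, 4.74% lower). Tnfrsf19 (Troy), a receptor induced by Wnt signalling, was at 2.61, 1.81 and 1.88 in CD34+ cells, at 4.69, 4.30 and 5.60 in remaining basal, 4.85, 4.64 and 4.61 in Gata6+Itga6+ and 3.52, 4.37 and 3.35 in Gata6+Itga6- cells. As for Axin2, the CD34+ arrays lay under all 9 others. The difference from CD34+ cells was at least 5.42-fold for remaining basal (limma adjusted p = 0.00126), 4.84-fold for Gata6+Itga6+ (0.00217) and 2.50-fold for Gata6+Itga6- cells (0.0184), the last being lost without CD34+ replicate 2 (0.0671) or 3 (0.0699) or Gata6+Itga6- replicate 2 (0.0637). Nkd2, a feedback inhibitor that binds Dishevelled, was at 3.12, 3.05 and 2.58 in Gata6+Itga6+ and 2.06, 2.05 and 2.00 in CD34+ cells (at least 1.41-fold, 0.00523). Its paralog Nkd1, picked after its values were seen, was lower in both Gata6+ populations, at 2.70, 2.68 and 3.24 in CD34+, 2.04, 2.13 and 1.85 in Gata6+Itga6+ and 1.88, 2.09 and 2.10 in Gata6+Itga6- cells (at least 1.37-fold, 0.0116 and 0.00764). The difference of Nkd1 from Gata6+Itga6+ cells was not called without Gata6+Itga6+ replicate 3 (0.0507). With the median of only the probe sets above the level of silent genes, Nkd1 was not called against Gata6+Itga6+ (log2 change -0.015, adjusted p = 0.992) or Gata6+Itga6- cells (-0.27, 0.633), and Nkd2 was not called either (0.421), nor with the mean of its probe sets (0.160).

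Ccnd1, the cyclin of early G1 phase, was low in Gata6+Itga6- cells only, at 3.18, 3.54 and 3.10 against 4.40 to 5.74 in the 9 other arrays. It was 4.30-fold lower than in CD34+ (limma adjusted p = 0.00233), 3.64-fold than in remaining basal (0.00751) and 3.44-fold than in Gata6+Itga6+ cells (0.0167), the last call being lost without Gata6+Itga6+ replicate 2 (0.0626) or 3 (0.0724) or Gata6+Itga6- replicate 1 (0.0612) or 3 (0.0688). The growth regulator Myc, picked after its values were seen, was at 4.18, 4.72 and 3.63 in Gata6+Itga6- cells and at 5.10 to 6.66 in the other arrays. It was 4.42-fold lower than in Gata6+Itga6+ (0.0093), 3.24-fold than in remaining basal (0.0186) and 2.68-fold than in CD34+ cells (0.0321). The last 2 of these calls were lost without Gata6+Itga6- replicate 1 (0.0583 and 0.0893) or 3 (0.0707 and 0.118), that against remaining basal cells also without remaining basal replicate 2 (0.0762) or 3 (0.0599), and that against CD34+ cells also without CD34+ replicate 2 (0.108) or 3 (0.105). Axin2, in contrast, was not called between Gata6+Itga6- and Gata6+Itga6+ cells (log2 change -0.49, adjusted p = 0.381). Cd44, also picked after its values were seen, was at 7.66, 7.79 and 7.80 in Gata6+Itga6- cells and at 6.60 to 7.50 in the 9 other arrays. Limma called it higher than in CD34+ and remaining basal cells. These calls were lost in 3 and 5 of 12 fits that left out 1 array, and with the brightest probe set (0.978 and 0.626).

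**Figure D5:**
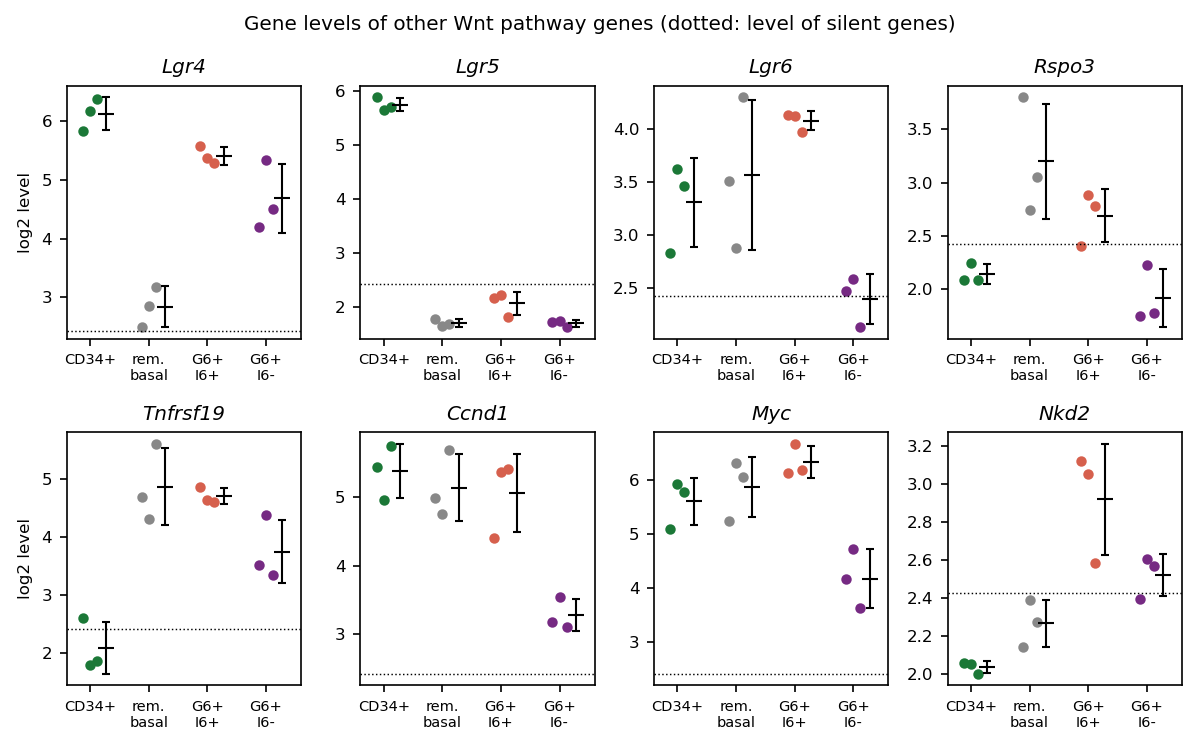
Gene level (log2) in each array (points) with mean and SD (bars, n = 3) for 8 other genes of the pathway in the 4 populations (G6, Gata6; I6, Itga6; rem., remaining); the dotted line is the level of silent genes, 2.42, and each panel has its own scale. Lgr5 stands out in CD34+ cells, Lgr4 is lowest in remaining basal cells, Tnfrsf19 lowest in CD34+ cells, and Ccnd1 and Myc lowest in Gata6+Itga6- cells.

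Of the planar polarity genes, which Frizzleds use to orient cells and hairs in the sheet, all 3 calls were between Gata6+Itga6- and remaining basal cells. Celsr1, a cadherin of the core polarity complex, was at 2.86, 2.90 and 2.52 in Gata6+Itga6- and 3.48, 3.57 and 3.72 in remaining basal cells (1.78-fold lower, limma adjusted p = 0.0106). Vangl1, its membrane partner, was at 3.38, 4.15 and 4.59 in Gata6+Itga6- and 2.99, 2.38 and 2.56 in remaining basal cells (2.64-fold higher, 0.0218). Prickle1 was lower in Gata6+Itga6- cells (1.64, 1.82 and 1.87 against 2.75, 2.19 and 2.37, log2 change -0.67, 0.0398). The call of Vangl1 did not hold without Gata6+Itga6- replicate 2 (0.0809) or 3 (0.0727), nor without remaining basal replicate 2 (0.0881) or 3 (0.0638). Prickle1 was not called in 9 of 12 fits that left out 1 array (0.0559 to 0.134), all but those without CD34+ replicate 1 or 3 or remaining basal replicate 2.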

How the data were processed

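Deposited values were intensities of 235932 exon probe sets on 12 Affymetrix mouse exon arrays, which the authors made by RMA in Affymetrix Power Tools with mouse build mm9, per the submitters' processing notes. Their versions are not given in the sources used here. Amplification was by a small-sample kit, per the labels' protocols. The values were read as linear, from their range, and every log2 level rests on that reading.

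Probe sets with 1 symbol (221205) were used; 1684 had several and 13043 none listed. From the deposited intensities, log2 of the value plus 1 was taken, which makes changes of dim genes smaller, and the median over a gene's probe sets gave its level. The model (limma 3.58.1, R 4.3.3) had 1 mean per population. The 6 pairs and the F test were adjusted by Benjamini-Hochberg. It was tested on simulated data.

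Members and lists were chosen with earlier results of these data known. Called members were given in every array. From other lists up to 3 called genes with the smallest F test p were named, plus the sort genes. Lgr6, Nkd1, Myc and Cd44 were picked after their values were seen. Alternatives covered the probe set summary, normalization, pseudocounts, a dim gene filter, blocks, the variance model and left-out arrays; the probe set fit was added later. No member mean was compared with another gene's.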

Additional observations from a re-analysis of the deposited data

How the results depend on the processing

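Of the 26 calls of a member in a pair, 5 were kept in every alternative fit in which the gene was tested (Fzd3 and Tcf7l2 in CD34+ against remaining basal, Fzd7 in Gata6+Itga6- against remaining basal, Wnt5a in CD34+ and in Gata6+Itga6- against remaining basal) and 11 without each array in turn. Quantile normalization lost none. Leaving out the dimmest genes lost none of the calls it tested, but removed Wnt5a with its 3 calls. The brightest probe set alone lost 17, a fit of only the 2 populations lost 11 and the brightness covariate lost 7.

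The counts of members called that moved by over 1.5 times were these. Between Gata6+Itga6+ and CD34+ cells the brightest probe set gave 2 in place of 4. Between Gata6+Itga6- and CD34+ cells it gave 1 in place of 4, and between Gata6+Itga6- and Gata6+Itga6+ cells 1 in place of 0. Between Gata6+Itga6+ and remaining basal cells a pseudocount of 16 gave 1, the fit of only these populations 0 and the brightness covariate 1, in place of 3. Between Gata6+Itga6- and remaining basal cells the fit of only these populations gave 2 in place of 6. The cause was not tested. The fits of only 2 populations used fewer arrays.

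Of all genes, the mean of probe sets called 1513 for CD34+ against remaining basal (892 with the median), 1300 for Gata6+Itga6+ against CD34+ (819), 454 for Gata6+Itga6+ against remaining basal (242), 2159 for Gata6+Itga6- against CD34+ (1421), 995 for Gata6+Itga6- against Gata6+Itga6+ (567) and 1403 for Gata6+Itga6- against remaining basal (913). The fit of only 2 populations called 571 for CD34+ and 110 for Gata6+Itga6+ against remaining basal. The brightest probe set called 503 for Gata6+Itga6+ against CD34+, the pseudocount of 16 called 151 and the brightness covariate 127 for Gata6+Itga6+ against remaining basal, and that covariate 370 for Gata6+Itga6- against Gata6+Itga6+. With the covariate the share of calls that were higher was 62.2% in place of 78.9% for Gata6+Itga6+ against remaining basal, 50.2% in place of 66.5% for CD34+ against remaining basal, 51.4% in place of 40.4% for Gata6+Itga6- against CD34+ and 49.5% in place of 36.7% for Gata6+Itga6- against Gata6+Itga6+.

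Without each array in turn, 6 to 10 members were called by the F test, 5 to 10 for CD34+ against remaining basal, 1 to 4 for Gata6+Itga6+ against CD34+, 1 to 5 against remaining basal, 2 to 4 for Gata6+Itga6- against CD34+, 4 to 7 against remaining basal and 0 against Gata6+Itga6+. Over all genes the ranges were 673 to 906, 567 to 874, 131 to 343, 1056 to 1500, 644 to 926 and 285 to 626 for these pairs in the same order.

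With the brightest probe set the log2 change turned for Btrc (-0.37) and Lgr5 (-0.20) in CD34+ minus remaining basal, for Lgr5 (0.43) and Porcn (0.14) in Gata6+Itga6- minus CD34+ and for Fzd2 (0.036) in Gata6+Itga6+ minus CD34+. That of Wnt16 in CD34+ minus remaining basal was 0.011 with the median of probe sets above the level of silent genes.

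Whether replicate numbers pair the samples is not stated. Deviations of same-numbered arrays correlated at -0.144 to 0.279, over 0.1 in 5 of 18 pairs. Those of arrays with different numbers correlated at -0.240 to 0.269, over 0.1 in 4 of 36 pairs. These ranges overlap and cannot decide whether the samples were paired. With the replicate block 9 members were called by the F test and 8, 3, 2, 3, 5 and 0 in the pairs in that order, and 5 of the 26 calls were lost. The array name letters go with the replicate numbers in another way in CD34+ than in the other populations; same-lettered arrays correlated at -0.168 to 0.279, over 0.1 in 5 of 18 pairs. With the letter as a block 8 members were called by the F test and 8, 3, 3, 4, 5 and 0 in the pairs, and 5 of the 26 calls were lost. Gene levels near the floor limit most ligands.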
